A study of Mus musculus with 2 samples.

Results

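The products of the replication licensing genes form, load or help to start the DNA helicase of the replication fork, or form its clamp. The 10 genes are Mcm2, Mcm3, Mcm4, Mcm5, Mcm6, Mcm7, Mcm10, Cdc6, Cdt1 and Pcna. They were taken by name, and every peak of either list that met a gene's RefSeq span plus 10 kb on either side was counted as one of its peaks. These 10 are among 21887 protein-coding genes on chromosomes 1 to 19, X and Y, and their windows held 13 of 46592 control peaks and 26 of 39768 lactate peaks. The mark is H4K12la, lactylated lysine 12 of histone H4, mapped with CUT&Tag. The cells were Neuro2a, a line from a mouse neuroblastoma. In CUT&Tag an antibody brings a transposase to the mark, which cuts and tags the DNA beside it. The control library came from cells given NaCl and the other from cells given 25 mM lactate. Both were grown in medium with fetal serum, and the length of treatment is not given in the sources used here. With 1 line and 1 library per group the spread between replicates is unknown and the groups could not be tested against each other. All intervals cover counting error only.

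Replication origins are licensed before S phase. Cdc6 and Cdt1, together with the origin recognition complex, place the ring-shaped Mcm2 to Mcm7 helicase around DNA in an inactive form. Mcm10 helps the ring to start unwinding, and Pcna forms the sliding clamp that holds polymerases on the template. Genes of this group are known targets of the E2F factors, which turn on transcription as dividing cells leave G1, and Neuro2a is a dividing line.

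A peak is described by its summit pileup, the number of overlapping reads at its highest point, and by its local background, the pileup that the peak caller expected there from the surrounding DNA. Both were worked out from the deposited fold and p. The fold of a peak is close to the ratio of summit to local background, so an equal fold can stand for unequal pileups. The genome-wide background was 2.96 control and 3.06 lactate reads, a difference of 3.43%. It stands here for relative depth, since the lists hold no read totals. No peak was called with a summit under 11 reads in either list. A gene-end peak is one within 1 kb of either annotated end. Among markers of neuroblastoma and noradrenergic cells, Phox2a and Elavl4 had a gene-end peak with lactate only and Hand2 with NaCl only, while Gata3, Th and Dbh had none in either library. None of 6 markers of other cell types had one, which says nothing of their expression.

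All 10 licensing genes had a gene-end peak in the lactate library, against 44.8% of all protein-coding genes. In the control 6 of 10 had one, against 32.0%. Mcm3, Mcm4, Mcm6, Mcm7, Cdt1 and Pcna were called in both libraries, where the share over all genes was 28.6%. Mcm2, Mcm5, Mcm10 and Cdc6 were called with lactate only, beside 16.2% of all genes. With gene ends widened to 3 kb, Mcm2 and Mcm10 were called in both, which left 2 genes with lactate only. The control peaks then counted overlapped no lactate peak. That of Mcm2 lay 1652 bp from its lactate peak. That of Mcm10 lay near the 3′ end, 19499 bp from the lactate peak at the 5′ end. No licensing gene was called in the control alone, a class that held 3.34% of all genes. A peak anywhere in the span plus 10 kb was found at 9 of 10 members for NaCl and at 10 of 10 for lactate, beside 59.3% and 66.8% of all genes. Cdc6 was the member without a control peak.

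**Figure D1:**
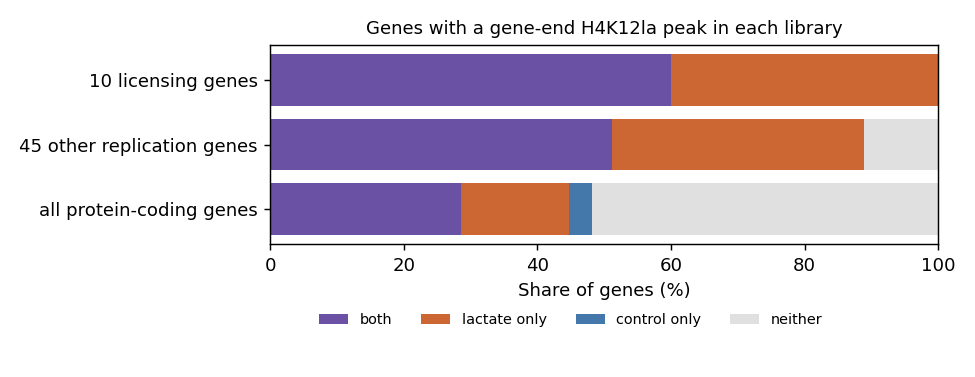
Share of genes (horizontal axis, percent) with a gene-end H4K12la peak in both libraries, in lactate only, in control only or in neither, for the 10 licensing genes, 45 other replication genes and all 21887 protein-coding genes. The licensing genes fill the bar with 6 genes called in both libraries and 4 in lactate only, while 11354 of all genes were called in neither.

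The shares also differ with promoter composition. CpG-rich promoters are here those with a GC content of at least 50% and an observed to expected CpG ratio of at least 0.6 in the 300 bases around a RefSeq start. Among genes with such a promoter, 48.7% had a gene-end peak in the control, 69.9% in the lactate library and 23.6% in the lactate library alone. Of the licensing genes, 7 have one (Mcm2, Mcm5, Mcm6, Mcm7, Cdc6, Cdt1 and Pcna), and 4, 7 and 3 of these 7 fell in those classes. Mcm3 and Mcm10 have an observed to expected CpG ratio of 0.45 and 0.54 and missed the limit. The shares for CpG-rich genes lie closer to those of the licensing genes than the shares over all genes do. How far composition accounts for the calls was not tested.

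The upstream sequences of 4 members are printed here. The lactate peak of Mcm6 covered its whole sequence, and the other peaks covered theirs only in part. Of the summits of these peaks, only that of Mcm5 lay upstream of the start. Mcm6 had the highest gene-end summit in both libraries, and Mcm5, Mcm2 and Mcm10 are those called in the lactate library alone whose peak covered the RefSeq start. Each is the 250 bases before the start (RefSeq, GRCm38.p6, the assembly of mm10), read 5′ to 3′ on the gene's strand. They lie at chr1:128359706-128359955 for Mcm6 (minus strand), chr8:75109259-75109508 for Mcm5 (plus strand), chr6:88898781-88899030 for Mcm2 (minus strand) and chr2:5012792-5013041 for Mcm10 (minus strand). Capitals mark matches on either strand to an E2F-type element (TTTCGCGC or TTTGGCGC or TTTCCCGC) or to the CCAAT box, CCAAT, which reads ATTGG on the other strand.
Mcm6: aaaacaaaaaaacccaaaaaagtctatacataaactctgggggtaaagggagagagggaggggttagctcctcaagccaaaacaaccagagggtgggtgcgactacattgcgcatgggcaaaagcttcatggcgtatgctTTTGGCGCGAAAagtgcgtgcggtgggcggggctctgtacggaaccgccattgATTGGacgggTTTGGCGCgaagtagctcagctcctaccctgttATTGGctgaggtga
Mcm5: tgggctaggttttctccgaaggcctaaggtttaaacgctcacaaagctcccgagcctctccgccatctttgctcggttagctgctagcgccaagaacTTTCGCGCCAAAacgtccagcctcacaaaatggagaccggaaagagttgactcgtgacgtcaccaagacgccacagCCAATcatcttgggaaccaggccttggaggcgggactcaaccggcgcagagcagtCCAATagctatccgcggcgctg
Mcm2: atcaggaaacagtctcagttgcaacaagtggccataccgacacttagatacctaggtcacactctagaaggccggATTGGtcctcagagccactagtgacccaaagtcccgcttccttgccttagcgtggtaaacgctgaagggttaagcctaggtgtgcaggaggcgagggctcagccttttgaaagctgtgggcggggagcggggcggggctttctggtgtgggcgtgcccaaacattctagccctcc
Mcm10: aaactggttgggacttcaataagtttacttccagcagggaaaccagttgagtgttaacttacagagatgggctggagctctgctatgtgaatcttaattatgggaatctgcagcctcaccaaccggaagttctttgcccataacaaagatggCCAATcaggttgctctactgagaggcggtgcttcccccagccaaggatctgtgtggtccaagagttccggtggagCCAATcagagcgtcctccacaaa

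Mcm6 and Mcm5 each carry an E2F-type pair, TTTGGCGC and TTTCGCGC on opposite strands with some bases in common, which Mcm2 and Mcm10 lack. In Mcm6 the pair begins 110 bases before the start and a further TTTGGCGC begins 47 bases before it. In Mcm5 the pair begins 153 bases before the start. All of these matches lay inside the lactate peak of their gene, and those of Mcm6 also inside its control peak. Mcm10 has CCAAT 98 and 23 bases before its start, both inside its lactate peak. The single CCAAT match of Mcm2 is 175 bases before its start and outside its peak.

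Cdc6 and Cdt1, the loading factors, differed from each other in the control. Cdc6 (chromosome 11, 98907709 to 98923942 in mm10, plus strand) had no control peak in its whole 36.2 kb window, and the nearest one lay 43262 bp from its lactate peak. In the lactate library it had 3 peaks. The first covered 98907673 to 98907964, across the annotated 5′ end, with 23 summit reads (95% interval 14.6 to 34.5) over a local background of 5.70 and a −log10 q of 4.79. This peak ends before the start that the RefSeq promoter table gives for Cdc6, at 98908151, and its summit lay 287 bp upstream of that start. A second, of 19 reads, lay at the 3′ end, and the third, of 26 reads, lay 7054 bp past the gene inside its neighbour Rara, which encodes a retinoic acid receptor.

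Cdt1 (chromosome 8, 122568015 to 122573130, plus strand) was called in both libraries just upstream of its start. The control peak had 20 summit reads (12.2 to 30.9) over a local background of 5.66, and the lactate peak 31 (21.1 to 44.0) over 11.08. The whole of the 366 bp control peak lay within the 494 bp lactate peak, and the summits were 41 bp apart. This was the highest local background of any licensing gene's best gene-end peak in each library. With it, the fold of the lactate peak, 2.65, stayed under that of the control, 3.15, and its −log10 q was only 3.64 with 31 reads. At this background the least pileup that passes the threshold is 25 reads, against 15 reads at the lactate background of Mcm3. The lactate library had 3 more peaks here, 1 of 28 reads inside the gene and 2 of 26 reads outside it, of which the farther lay at the 5′ end of Aprt, the adenine salvage enzyme gene.

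The 6 subunits of the helicase ring were all called at a gene end in the lactate library, and Mcm3, Mcm4, Mcm6 and Mcm7 also in the control. Mcm6 (chromosome 1, 128331575 to 128359705, minus strand) had the highest gene-end summit of the 10 genes in both libraries, with 23 control (14.6 to 34.5) and 46 lactate reads (33.7 to 61.4). The control peak, 471 bp wide, lay wholly within the 679 bp lactate peak, and both crossed the 5′ end. Its −log10 q was 5.66 and 14.36. A lactate peak of 21 reads with no control partner lay at its 3′ end. Mcm3 (chromosome 1, 20802966 to 20820312, minus strand) had 16 control reads (9.15 to 26.0) and 30 lactate reads (20.2 to 42.8), with summits 20 bp apart at the 5′ end. The lactate library had a second, smaller peak of 16 reads there, 526 bp into the gene.

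**Figure D2:**
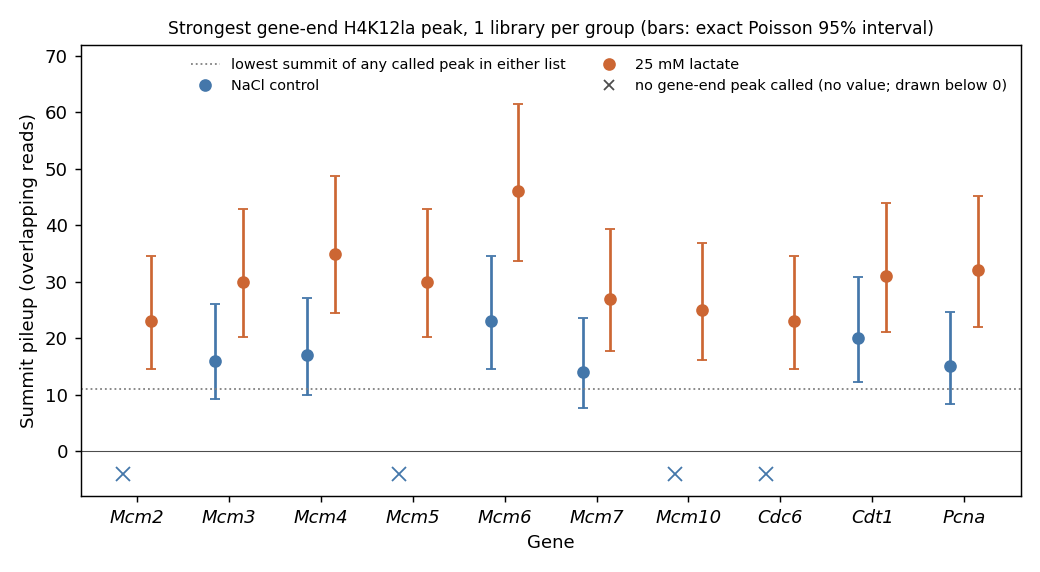
Summit pileup (vertical axis, overlapping reads) of the highest-fold gene-end peak of each licensing gene in the NaCl control and the 25 mM lactate library, with exact Poisson 95% intervals for counting error. The 6 control values run from 14 to 23 reads and the 10 lactate values from 23 to 46, and crosses below the axis mark the 4 genes with no control call.

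Mcm4 and Mcm7 share their peaks with neighbouring genes. The Mcm4 span (chromosome 16, 15623897 to 15637400) ends 43 bp from that of Prkdc, the DNA damage kinase gene. A single lactate peak of 1077 bp, the widest in any licensing window, crossed both ends with 35 reads (24.4 to 48.7). The control had 2 narrower peaks inside the same stretch, 1 of 13 reads in Mcm4 and 1 of 17 (9.90 to 27.2) in Prkdc. Mcm7 (chromosome 5, 138164583 to 138172111, minus strand) overlaps Ap4m1, an adaptor complex gene, by 91 bp at its 5′ end and has 2 RefSeq starts. The lactate library had a peak at each start, both of 27 reads (17.8 to 39.3). The one control peak, of 14 reads (7.65 to 23.5), lay between them and met the upstream one by 8 bp, so it counts as shared only because 1 bp is enough. Whether the reads belong to Mcm4 or Prkdc, or to Mcm7 or Ap4m1, cannot be told from these lists.

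Mcm7 also hosts the microRNA genes Mir25, Mir93 and Mir106b. No peak of either library lay closer to these hairpins than 4174 bp. The other peaks of the Mcm7 window were at the 5′ ends of Cops6, a COP9 signalosome gene, and Zfp113, and both were shared. At Zfp113 the control summit was 18 reads and the lactate summit 36.

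Mcm2 and Mcm5, the remaining ring subunits, were called at their 5′ end in the lactate library alone. Mcm2 (chromosome 6, 88883474 to 88898780, minus strand) had 23 reads (14.6 to 34.5) in a 262 bp peak over a local background of 8.32. Its −log10 q was 2.43, the lowest of the best gene-end peaks of the 10 genes in the lactate library. The control had 1 peak of 16 reads inside Mcm2, 1652 bp from the lactate peak. At the local background of that control peak, 4.22, a summit of 13 reads would have been called. At that of the lactate peak, 8.32, the least callable control summit was 20 reads. The control background at the 5′ end itself is unknown, since no control peak was called there. Mcm5 (chromosome 8, 75109468 to 75128439, plus strand) had 30 reads (20.2 to 42.8) in a 354 bp peak with a −log10 q of 6.29, the highest summit among the 4 genes called in the lactate library alone. Its single control peak, of 20 reads, lay 11358 bp away inside the gene and overlapped no lactate peak. The lactate library had 2 further peaks, of 20 reads elsewhere inside Mcm5 and 21 reads 3598 bp past it.

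Mcm10 (chromosome 2, 4990724 to 5012791, minus strand), the helicase activator, was called at its 5′ end with lactate only, at 25 reads (16.2 to 36.9) in a 285 bp peak and a −log10 q of 5.58. Its 1 control peak, of 19 reads, lay inside the gene, and the lactate library had 3 further peaks. None of these 5 peaks overlapped one of the other library. Of the lactate peaks, 2 lay inside Mcm10 with 22 and 21 reads, and 1 of 19 reads lay 7061 bp upstream near the 3′ end of Optn.

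Pcna (chromosome 2, 132249286 to 132253180, minus strand), the clamp, was called in both libraries. The control peak had 15 reads (8.40 to 24.7) over 579 bp and the lactate peak 32 (21.9 to 45.2) over 786 bp, and the first lay wholly within the second. The ratio of the 2 summits, 2.13, was the highest of the 6 genes called in both. The lactate summit lay 439 bp into the gene and the control summit 34 bp into it. The lactate peak also reached Cds2, a phospholipid synthesis gene that starts 157 bp away. A second shared peak, 9765 bp from Pcna in the control and inside Cds2, had 19 and 30 reads.

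**Figure D3:**
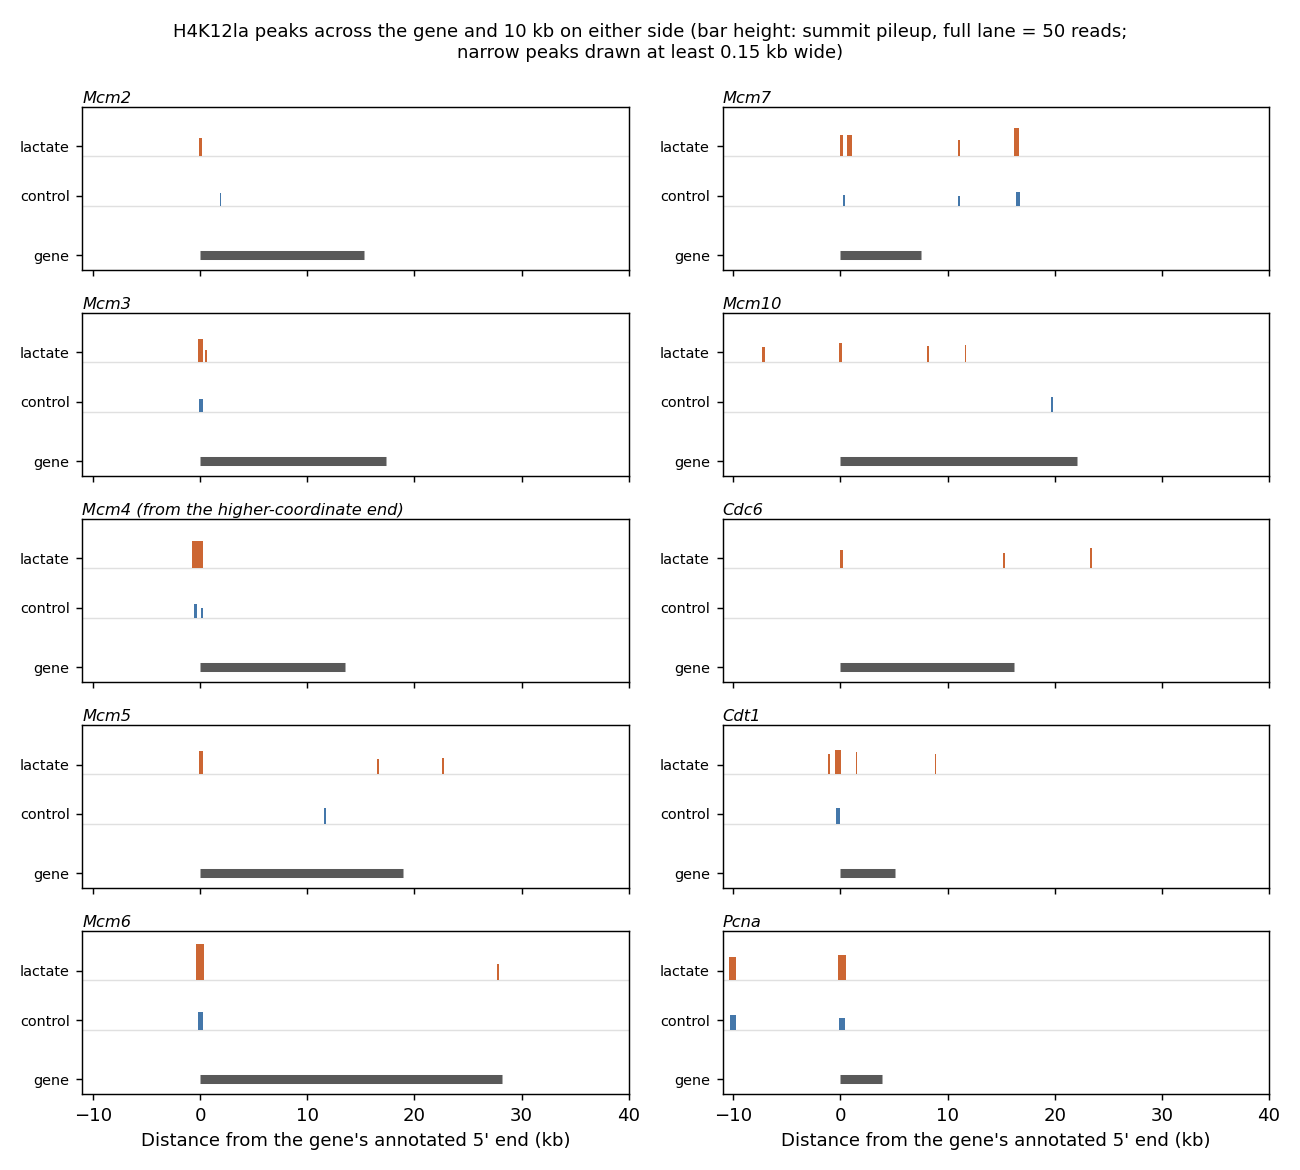
Peaks of both libraries along each licensing gene and 10 kb on either side, by distance from the annotated 5′ end (horizontal axis, kb; for Mcm4, from its higher-coordinate end). Bar height is the summit pileup, and the grey bar is the gene. At the 6 genes called in both libraries the best peaks lie at the same end, and 12 of the 26 lactate peaks and 6 of the 13 control peaks lie away from the ends of the licensing gene itself.

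At all 6 genes called in both libraries, the lactate summit was the higher, by 1.55 times at Cdt1 to 2.13 times at Pcna. The 95% counting intervals of the 2 libraries overlapped at each of the 6, which is not a test of the difference. At Mcm6 they met only narrowly, up to 34.5 in the control and from 33.7 in the lactate library. The median summit of these genes was 16.5 control and 31.5 lactate reads, and over the 6266 genes called in both it was 17 and 26. The median ratio was 1.96 for the licensing genes and 1.55 over all, where the quartiles were 1.32 and 1.77. A higher lactate summit was found at 94.5% of all genes called in both, so the direction is that of most genes. The lactate peak was also the wider at all 6, by a median of 1.40 times, beside 1.58 times over all genes.

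The local background was higher in the lactate library as well. At the 6 shared genes it ran from 2.96 to 5.66 control reads and from 5.18 to 11.08 lactate reads. The median ratio was 1.94 at the licensing genes and 1.64 over all genes called in both, although the genome-wide background differed by 3.43%. Fold, which divides by the background, had a median ratio of 1.14, with 5 of 6 genes higher in the lactate library and Cdt1 lower, beside 52.5% higher over all genes called in both and 43.5% over the other replication genes. Over all genes the median ratio of fold was 1.01. At Mcm4 and Pcna the control background sat at the genome-wide 2.96, the least value the caller uses, so the surroundings may have held less. Background and summit moved together, and the part of the one in the other was not tested.

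**Figure D4:**
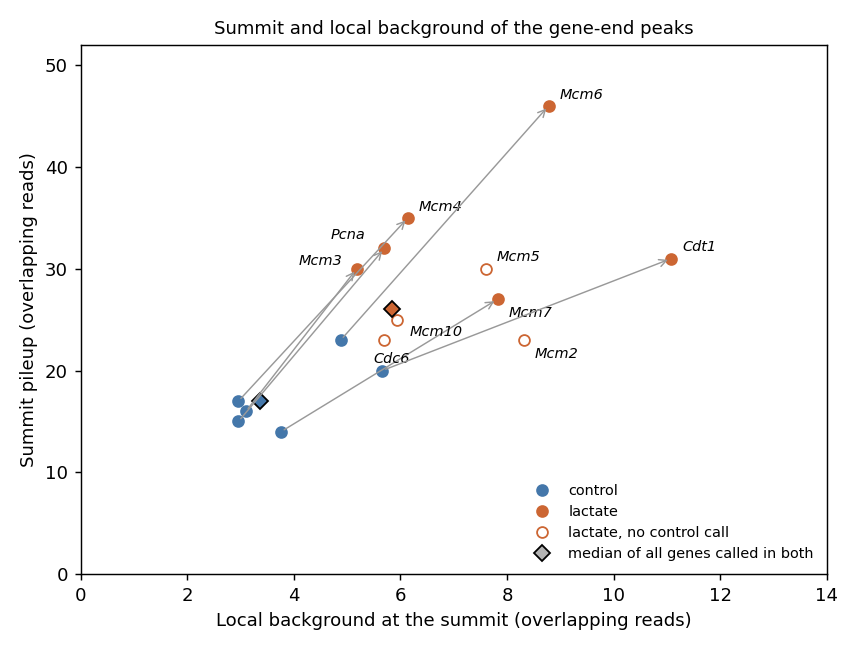
Summit pileup (vertical axis) against local background (horizontal axis, both in overlapping reads) of the best gene-end peak of each licensing gene. Arrows join the control to the lactate value of the 6 genes called in both, all of which point up and to the right, and diamonds give the medians of all genes called in both (17 over 3.36 reads in the control, 26 over 5.84 in lactate).

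Overlap was unequal between the libraries. Of the 13 control peaks in the licensing windows, 10 overlapped a lactate peak (76.9%, exact Clopper-Pearson 95% interval 46.2% to 95%), beside 37.7% of all control peaks. A control partner was found for 9 of the 26 lactate peaks (34.6%, 17.2% to 55.7%), beside 43.4% of all lactate peaks. All 7 control peaks at gene ends had a lactate partner, and 6 of 14 lactate peaks there had a control one. Over all peaks at the ends of protein-coding genes the shares were 81.3% and 52.5%, so the inequality at gene ends was general. Inside the genes, away from their ends, none of 3 control peaks (Mcm2, Mcm5, Mcm10) and none of 4 lactate peaks (Mcm5, Mcm10, Cdt1) had a partner, beside partners for 38.3% of control and 37.7% of lactate peaks inside any protein-coding gene and at no gene end. Those 7 body peaks had summits of 16 to 28 reads, and the highest −log10 q among them was 2.99. The lactate library had more peaks than the control at 7 of 10 genes (beside 38.3% of all genes), as many at Mcm2 and Pcna, and fewer at Mcm4, where 1 wide peak stood for 2.

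Where the RefSeq start is known, the marks sat close to it. In the control all 5 such genes had their best summit within 150 bp of a start, and in the lactate library 7 of 9. The exceptions were Cdc6 and Pcna. Over all genes with a peak within 1 kb of a start, 51.7% of control and 54.4% of lactate summits lay within 150 bp. With peaks limited to a −log10 q of 5 or more, the licensing genes with a gene-end peak were Mcm6 alone in the control (1 of 10, beside 8.54% of all genes) and Mcm3, Mcm4, Mcm5, Mcm6, Mcm10 and Pcna in the lactate library (6 of 10, beside 24.1%). Mcm4 had a control peak with a −log10 q of 4.99, just short of this limit.

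Of the 45 other replication genes, which recognise origins, activate the helicase or copy DNA, 23 had a gene-end peak in NaCl-treated cells and 40 in lactate-treated cells. These shares were 51.1% and 88.9%, beside 32.0% and 44.8% of all protein-coding genes. Among genes with a CpG-rich promoter they were 48.7% and 69.9%. Of the promoters of the other replication genes 74.4% were CpG-rich, beside 45.1% of all protein-coding promoters. In all 23 called in both, the lactate summit was the higher, as at 94.5% of all genes called in both. The median ratio was 1.46, beside 1.96 at the 6 licensing genes and 1.55 over all genes called in both. A further 17 were called with lactate only and none with NaCl only, beside 16.2% and 3.34% of all genes. The other 5 were called in neither library, as were 11354 of all 21887 genes. Of these 5, 3 had a peak within 1 kb of a RefSeq start in both libraries (Orc4, Lig1 and Rfc1) and Orc1 had one with lactate, since these starts lie away from the ends of the annotated span, and Pola1 had none. Of the 17 genes called with lactate only, the 6 with the highest fold were Ticrr, Cdc7, Gmnn, Mcm8, Tipin and Rfc4. Ticrr (28 reads) and Cdc7 (26) activate the helicase, and Gmnn (21) is the inhibitor of Cdt1. Mcm8 (29) is a helicase relative, Tipin (26) a fork protection factor and Rfc4 (18) a clamp loader subunit. The licensing inhibitor Gmnn was thus in the class of Cdc6 and not in that of its target Cdt1. Among those called in both, Orc5 had 26 control and 33 lactate reads, Orc6 32 and 34, Rpa3 25 and 49, and Wdhd1 14 and 32. Of the origin recognition genes, Orc2, Orc3, Orc5 and Orc6 were called at a gene end in both libraries. 

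E2F-type elements were found in 6 of the 9 licensing genes in the promoter table, namely Mcm3, Mcm5, Mcm6, Mcm7, Cdc6 and Cdt1. By promoter, 6 of 10 held one, since Mcm7 has 2, beside 30.2% of the promoters of the other replication genes and 2.41% of all 21263 protein-coding promoters of the same length. Of all CpG-rich promoters 4.26% held one, and 8 of the 10 promoters here were CpG-rich. The CCAAT box was found in 8 of 10 promoters, beside 44.2% for the other replication genes, 38.2% of all promoters and 36.1% of CpG-rich ones. Of the 11 E2F-type matches, some of them overlapping, 9 lay inside a lactate peak and 5 inside a control peak. The exceptions in the lactate library were the matches of Cdc6 and Cdt1. The elements did not separate the classes: 4 of 5 genes called in both and 2 of 4 called in the lactate library alone held one. Over all promoters with an E2F-type element, a lactate peak met 63.9% (59.5% to 68.0%) and a control peak 38.9% (34.6% to 43.2%), beside 37.3% and 23.4% of promoters without one. With CpG-rich promoters alone, the lactate share was 70.9% with an element and 65.7% without, and the control share 44.5% and 41.1%. A match is a stretch of letters and does not show that a factor was bound.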

How the data were processed

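The authors deposited 1 list of peaks per library. BWA, deepTools, MACS2 and the build mm10 are named by the submitters' processing notes. Not given in the sources used here were versions, calling settings and any control library or spike-in. In the deposited lists the fold is a ratio of summit pileup to local background, each with 1 added, the −log10 p and −log10 q are those of the summit, and the score is 10 times the −log10 q, cut to a whole number. The lowest deposited −log10 q was 1.30 in both lists.

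Only chromosomes 1 to 19, X and Y were used, which left out 6 peaks per list. Solving the fold, taken as (pileup + 1)/(background + 1), and the Poisson p together returned whole-number pileups, with a tolerance of 0.001 on −log10 p, at 46591 of 46592 control and all 39768 lactate peaks. The solution and the gene-end calls were checked on simulated peaks. These were made with the same formula and placed inside the end windows. They could therefore show errors of the code but not of the formula. The local background never fell under the genome-wide level. Relative depth is the ratio of the genome-wide backgrounds, and read totals are not in the lists.

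Gene spans are those of RefSeq on GRCm38.p6, and all 10 members and 45 other replication genes matched by symbol. Strand and starts came from the RefSeq promoter table, which covers 17492 of 21887 protein-coding genes and 9 of the 10 members, with no entry for Mcm4. Overlap meant at least 1 bp. The best peak of a gene is the gene-end peak with the highest fold. Shares have exact Clopper-Pearson and pileups exact Poisson 95% intervals. Python 3.11.15, numpy 2.4.6, pandas 2.3.3 and scipy 1.17.1 were used.

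All 10 members are named. Of the other replication genes the rule named up to 6 called in the lactate library alone and up to 4 in both, by fold, and all called in the control alone. Some cell type markers are not reported here. Members and lists were chosen with earlier results of these data known.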

Additional observations from a re-analysis of the deposited data

How the results depend on the processing

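The counts of licensing genes with a gene-end peak, 6 with NaCl and 10 with lactate, moved most with the threshold. For a −log10 q of 5 or more they were 1 and 6, and at 10 they were 0 and 3. The other replication genes went from 23 and 40 to 9 and 25, then to 3 and 5. The peaks in the licensing windows went from 13 and 26 to 2 and 8, then to 0 and 4. Overlap then rested on few peaks, with 100% of the 2 control peaks at 5 and 0% of the 4 lactate peaks at 10. The gene called in both at 5 was Mcm6, whose lactate summit of 46 reads was then the median, and at 10 there was none and so no median or control share. With the gene span alone, the control had 8 peaks. Lists of equal length, end windows of 500 bp or 3 kb, RefSeq starts alone (without Mcm4), flanks of 5 or 20 kb and 3 other overlap criteria moved no other of these counts beyond 1.5 times and no share beyond its interval. The genes called with lactate only, 4 in all, were 2 with a window of 3 kb, 5 and 3 at the stricter thresholds, and 4 otherwise. With 3 kb, Mcm2 and Mcm10 were called in both, by control peaks that overlapped no lactate peak. The stricter thresholds changed which genes these were. At 5 they were Mcm3, Mcm4, Mcm5, Mcm10 and Pcna, with Mcm2 and Cdc6 called in neither. At 10 they were Mcm4, Mcm6 and Pcna, and Mcm2, Mcm5, Mcm10 and Cdc6 were called in neither. In all, 47 of the values under alternatives were counted as unmoved and 16 as moved. Among the 16 is the lactate median at a −log10 q of 5, 46 reads beside 31.5, though that is less than 1.5 times. A gene with no control call may hold signal under about 11 reads, or more where the background is higher.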
